A study of Mus musculus with 6 samples.

Results

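The levels of 10 transcription factors that direct the fate of mesenchymal cells were compared in mouse embryo fibroblasts (MEFs): Sox9, Runx2, Sp7, Pparg, Cebpa, Cebpb, Myod1, Scx, Twist1 and Twist2. They were found by gene symbol in the deposited tables, where all 10 were present among 55565 listed genes. Mesenchymal cells of the embryo can become cartilage, bone, fat, muscle or tendon, and each fate is opened by a few DNA-binding proteins that switch on the genes of that tissue. Sox9 is required for cartilage, Runx2 and its downstream partner Sp7 for bone, and Pparg with the C/EBP proteins Cebpa and Cebpb for fat. Myod1 can turn fibroblasts into muscle cells, Scx marks tendon progenitors, and the paralogs Twist1 and Twist2 hold mesenchyme in an undifferentiated state.

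The study examined the MCM family helicase MCM8 with bulk RNA sequencing of 3 WT and 3 KO libraries. WT MEFs were Mcm8 +/+ and KO MEFs were Mcm8 -/-, both from E13.5 embryos of heterozygous parents on a mixed background of C57BL/6J and ICR. In both genotypes the MEFs came from minced trunks without head, tail, limbs, heart and liver, were immortalized by a lentivirus carrying an SV40 gene, selected with puromycin, and grown in DMEM with serum. The Mcm8 allele was made with CRISPR-Cas9 and was present in every cell, so that differences set up in the embryo and in culture are not separated. No differentiation medium is named, and the values describe growing fibroblasts. The sources call the libraries biological repeats without saying that each came from its own embryo or culture, so the p-values measure the spread between these libraries only, which may be technical.

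Library totals ran from 12722979 to 19019695 counts in WT and from 15954793 to 21022755 in KO. Mcm8 itself, the targeted gene, was lower in KO, at 14.4 ± 1.99 CPM in WT and 4.26 ± 0.170 CPM in KO (mean ± SD, n = 3 each). CPM are counts scaled to the library's total and its TMM factor. All 11 fibroblast markers examined were detected, among them Col1a1 at 8634 CPM in WT. The library WT1 stood apart: its counts differed from those of WT2 and WT3 by a chi-square per gene of 14.3 and 13.2, where counting noise alone gives about 1, against 4.40 between WT2 and WT3 and from 2.63 to 3.05 between KO libraries. Summed over 4 Y-linked genes, WT libraries held 23.8 to 26.0 CPM and KO libraries 108 to 127 CPM (here without TMM), and Xist lay at 943 to 1351 CPM in WT against 477 to 500.4 CPM in KO, so that genotype and the sex make-up of the cultures cannot be told apart.

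Before the levels are compared, the most alike parts of the paralogs are shown, because reads from such parts could be assigned to the wrong member. Over 165 coding bases around the DNA-binding domain, the transcripts of Twist1 and Twist2 were identical at 148 bases (89.7%), and all 17 mismatches lay at the last base of a codon. Over 165 bases of the basic leucine zipper region, Cebpa and Cebpb were identical at 131 bases (79.4%), and 19 of their 34 mismatches lay at that codon position. The sequences come from GENCODE M21 transcripts, written 5′ to 3′ in the coding sense, with capitals where the paired genes differ. Positions are counted from 1 at the first base of the start codon, and run from 347 to 511 in Twist1, 209 to 373 in Twist2, 816 to 980 in Cebpa and 633 to 797 in Cebpb.
Twist1: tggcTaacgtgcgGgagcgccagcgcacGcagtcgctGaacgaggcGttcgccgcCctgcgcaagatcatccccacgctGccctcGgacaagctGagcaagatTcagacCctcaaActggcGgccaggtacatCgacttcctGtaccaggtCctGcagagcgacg
Twist2: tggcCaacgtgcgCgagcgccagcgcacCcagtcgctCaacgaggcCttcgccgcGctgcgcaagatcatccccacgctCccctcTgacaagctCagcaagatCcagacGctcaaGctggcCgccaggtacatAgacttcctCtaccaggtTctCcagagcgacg
Cebpa: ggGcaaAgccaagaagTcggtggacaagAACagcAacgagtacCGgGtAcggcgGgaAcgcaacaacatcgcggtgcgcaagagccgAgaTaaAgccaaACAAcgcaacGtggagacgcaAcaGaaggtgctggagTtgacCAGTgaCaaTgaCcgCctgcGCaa
Cebpb: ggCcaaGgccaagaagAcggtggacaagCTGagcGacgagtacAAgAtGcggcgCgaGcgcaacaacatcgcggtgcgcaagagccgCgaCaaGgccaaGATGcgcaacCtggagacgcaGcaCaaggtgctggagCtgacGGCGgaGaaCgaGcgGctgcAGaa
The longest stretch without a mismatch was 23 bases between the Twist1 and Twist2 transcripts and 29 bases between those of Cebpa and Cebpb. The paired reads of the study were longer than either stretch, and how they were assigned was not tested. Among the other 43 pairs of the 10 genes, no such window passed 55.8% identity and no exact stretch passed 20 bases.

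The levels of the 10 regulators spanned a wide range in growing MEFs, with Twist1 at the top by the deposited gene lengths and the muscle factor Myod1 without a count. Levels of different genes were compared in FPKM, the authors' value per length of gene and per library. In WT the order was Twist1 (35.3 ± 1.99 FPKM), Cebpb (23.2 ± 3.73), Twist2 (13.5 ± 1.76), Runx2 (7.79 ± 0.470), Scx (4.90 ± 0.891), Sox9 (2.23 ± 0.218), Cebpa (0.808 ± 0.0555), Pparg (0.447 ± 0.0593) and Sp7 (0.0732 ± 0.0378; mean ± SD, n = 3). Myod1 had 0 counts in all 6 libraries, which allows a level of up to 0.143 CPM in the deepest library and 0.236 CPM in the shallowest (the level of 3 counts, covering counting error only). With the gene lengths of the deposited table, the order in KO was the same except that Scx, at 10.5 ± 0.374 FPKM, passed Runx2, at 6.45 ± 0.335 FPKM. No neighbours in either order overlapped in any library, but some lay close together, as Twist2 (11.1 to 12.6 FPKM) and Scx (10.2 to 10.9 FPKM) or Runx2 (6.06 to 6.65 FPKM) and Sox9 (5.55 to 5.88 FPKM) in KO.

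Among all listed genes Twist1 was at place 1432 in WT and Sox9 at place 10009 by mean FPKM. In KO, Sox9 was at place 7119 and Scx moved from 7666 to 4932. The FPKM of Scx rests on a length of 2007 bases in the deposited table, which is its whole span with the intron, and that of Runx2 on 8837 bases. The order of these genes depends on such lengths. With each regulator taken per length of 1 spliced GENCODE M21 transcript, that with the longest coding sequence (1035 bases for Scx, 1791 for Runx2), a choice made after the data were seen, Runx2 was at 38.4 ± 2.32 FPKM in WT and 31.8 ± 1.66 in KO and Scx at 9.50 ± 1.73 and 20.3 ± 0.725. By its mean Runx2 then lay at the top in WT, above Twist1, and between Twist1 and Cebpb in KO. The WT libraries of Runx2 (35.8 to 40.0 FPKM) and Twist1 (33.0 to 36.5 FPKM) overlapped. Of the 1791 bases taken for Runx2, 1788 are coding, against 618 of 1628 for Twist1. That Runx2 transcript thus has almost no untranslated part, and its level per length may be overstated. Scx lay below Runx2 in both genotypes and above Twist2 in KO only. Comparisons of 1 gene between genotypes do not involve the length.

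**Figure D1:**
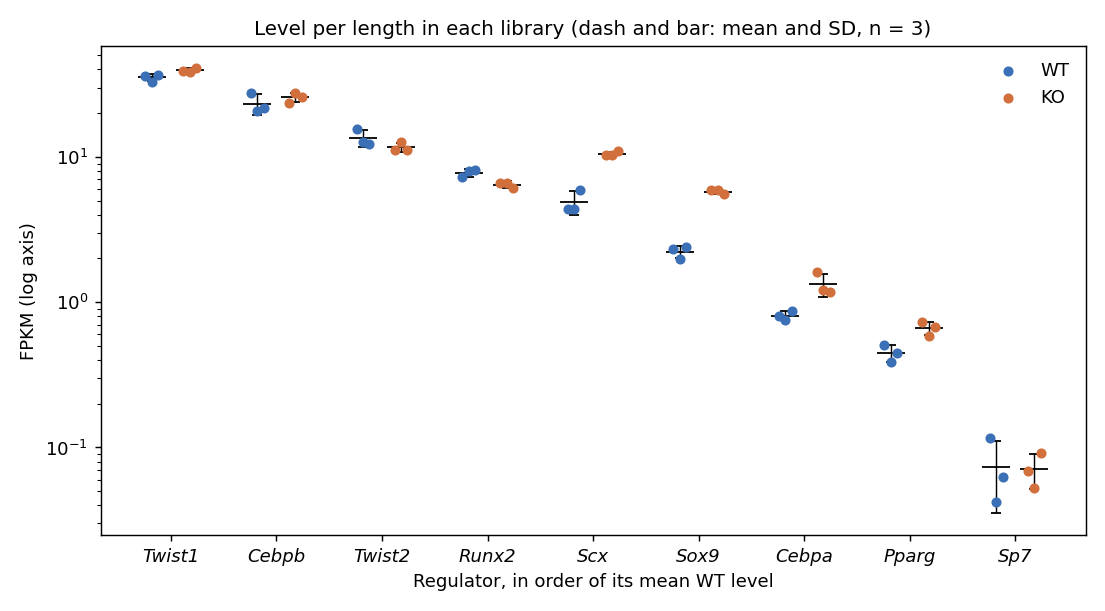
Level of each regulator in FPKM (log axis) in every library, WT in blue and KO in orange, in order of the mean WT level, with a dash and bar for mean and SD (n = 3). Myod1, at 0 in all libraries, is not drawn. The KO points of Sox9 and Scx lie above all their WT points, and with the deposited lengths Scx lies above Runx2 in KO only.

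Tested in the edgeR fit over the 26898 genes that any library listed above 0 FPKM, 3 of the 9 measurable regulators had an adjusted p below 0.05: Sox9 and Scx rose and Runx2 fell in KO MEFs. The background was 9.00% of all genes tested (4.97% higher and 4.03% lower in KO), and 17.0% of the 13222 genes with a mean of at least 1 CPM, which 8 of the regulators reached. As DEGs, with an absolute log2 fold change above 1 and an adjusted p below 0.05, Sox9 and Scx were called, where the background was 2.42% of all genes tested (1.75% higher in KO) and 3.58% of those with at least 1 CPM. The groups did not overlap in 6 of the 9 regulators, 5 higher and 1 lower in KO, beside 21.6% of all genes tested (11.6% higher and 10.1% lower) and 34.1% of those with at least 1 CPM. The median log2 fold change of the 9 regulators was 0.16, and that of all genes tested 0.01. Over the 8 with at least 1 CPM it was 0.37, and over all genes of that level -0.0077. These genes were picked as a group with results of these data known, so the shares describe them and test nothing about the group.

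**Figure D2:**
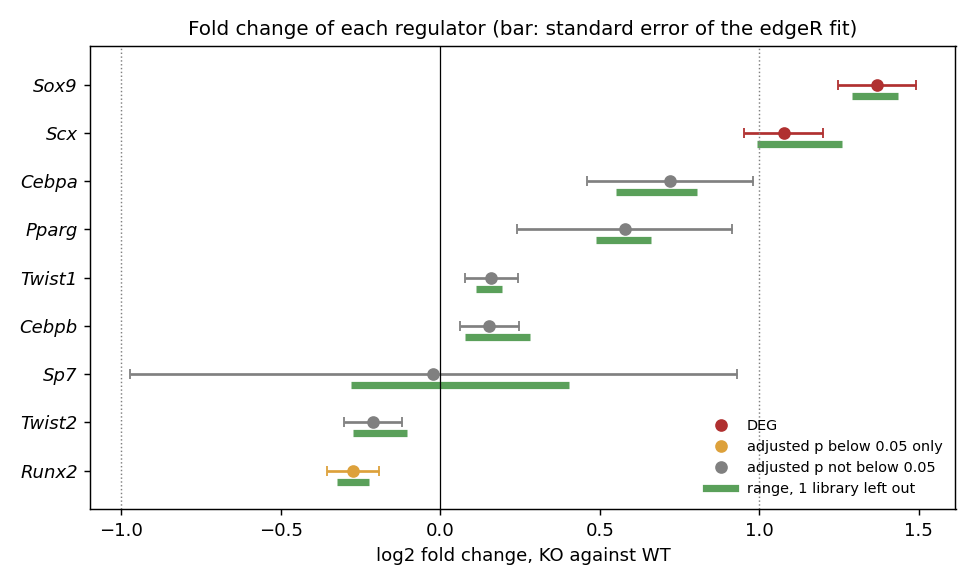
Log2 fold change (KO against WT) of the 9 regulators with counts, with the standard error of the edgeR fit (bar) and the range with single libraries omitted (green). Dotted lines mark log2 fold changes of -1 and 1, and only Sox9 (1.37) and Scx (1.08) lie past them.

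Sox9, the cartilage regulator, on chromosome 11 from 112673050 to 112678586 (plus strand, GRCm39, the build of all positions given here), showed the largest rise of the 9. It had 122, 115 and 186 counts in the WT libraries, in the order of replicates 1 to 3 that is kept below, and 518, 406 and 369 in KO. Scaled to the libraries this was 9.56, 8.20 and 9.98 CPM in WT and 24.5, 24.4 and 23.0 CPM in KO. All KO libraries lay far above all WT libraries, and the spread within either genotype was small. The level was 2.59-fold higher in KO, a log2 fold change of 1.37 (standard error, SE, 0.12, adjusted p = 1.63e-26 in the quasi-likelihood fit of edgeR, after Benjamini-Hochberg). Leaving out each library in turn the value ran from 1.29 to 1.44, and Sox9 was called as a DEG each time. As the RNA was from bulk cultures, more cells that express a gene and more of its RNA per cell cannot be told apart, here and in the results that follow.

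Of 20 other cartilage genes 15 had counts, 3 rose and none fell. These were Sox5, an HMG-box partner of Sox9 in cartilage (0.513 ± 0.103 CPM in WT, 4.60 ± 1.27 CPM in KO, log2 fold change 3.16, standard error 0.33), Acan, which encodes the proteoglycan aggrecan (5.17 ± 0.409 and 11.3 ± 0.990 CPM, 1.12, 0.16), and Chst11, an enzyme of chondroitin sulfation (23.6 ± 3.11 and 34.1 ± 1.42 CPM, 0.52, 0.10). Their adjusted p-values were 1.01e-19, 2.81e-10 and 5.36e-06 (edgeR), and Sox5 and Acan were DEGs. The median log2 fold change of the 15 was 0.62, but 10 of them had a mean under 1 CPM. Col2a1, the main collagen of cartilage, had from 12 to 15 counts in WT and from 15 to 21 in KO, and Sox6, the close relative of Sox5, had 0 counts in each WT library and 5, 2 and 2 in KO, with adjusted p-values of 0.881 and 0.192 (edgeR). With limma-voom 5 genes of the list passed in place of 3, as Sox6 (adjusted p = 0.0397) and Comp, a matrix protein gene of cartilage and tendon (adjusted p = 0.0449), joined. Col2a1, Sox6 and Comp were named after their values were seen. Matn1, Col9a1, Snorc, Epyc and Ucma were at 0 in all libraries.

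Scx, the tendon regulator, on chromosome 15 from 76341652 to 76343658 (plus strand), also rose. It had 113, 123 and 224 counts in WT and 438, 344 and 352 in KO. This was 8.86, 8.77 and 12.0 CPM in WT and 20.7, 20.7 and 22.0 CPM in KO. WT3 stood above the other WT libraries, yet well below every KO library. The level was 2.14-fold higher in KO, a log2 fold change of 1.08 (SE 0.12, adjusted p = 4.43e-16, edgeR). Scx was close to the DEG threshold on the fold change, with 0.99 without WT2, where it was no longer called, 1.00 without WT1 and 1.26 without WT3. Its adjusted p was 2.20e-11 or smaller with each library left out.

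The gene lies within Bop1, a ribosome biogenesis gene on the opposite strand that is expressed far more, at 116 ± 6.65 CPM in WT and 123 ± 5.57 CPM in KO. Whether the counting used strand is not given in the sources used here, so reads of Bop1 in the shared span could have been counted for Scx, and their part was not tested. Bop1 itself had a log2 fold change of 0.08 (SE 0.07, adjusted p = 0.654, edgeR), and its genotypes overlapped.

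All 20 other tendon genes had counts, of which 5 rose and 4 fell, with a median log2 fold change of 0.02. The DEGs were Egr1 (68.7 ± 3.71 CPM in WT, 142 ± 9.52 CPM in KO, log2 fold change 1.04, standard error 0.08), Egr2 (1.59 ± 0.305 and 3.38 ± 0.467 CPM, 1.09, 0.28) and Six2 (0.312 ± 0.202 and 1.27 ± 0.0972 CPM, 1.94, 0.52). Without WT1 Egr2 was at 0.996, just under the DEG threshold, and Six2 at 1.55. The early growth response factors Egr1 and Egr2 act in tendon, but serum and growth factors also induce them in fibroblasts. Among matrix genes the small proteoglycan Bgn fell (-0.51, from 1759.9 ± 84.2 to 1239.6 ± 15.4 CPM), as did Thbs2, a thrombospondin (-0.37), while Tnc, which encodes tenascin-C, rose (0.37, from 1387 ± 157 to 1792 ± 21.4 CPM). In edgeR no adjusted p of these 6 genes was above 0.00354. Tnmd, a marker of mature tendon cells that was named after its values were seen, had from 1 to 2 counts in WT and from 0 to 1 in KO.

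Runx2, the bone regulator, on chromosome 17 from 44806874 to 45125684 (minus strand), fell by a small amount. It had 818, 995 and 1349 counts in WT and 1250, 981 and 862 in KO, which is 64.1, 70.9 and 72.4 CPM in WT and 59.0, 59.0 and 53.8 CPM in KO. All KO libraries lay below all WT libraries, with WT1 closest to them. KO MEFs kept 82.8% of the WT level, a log2 fold change of -0.27 (SE 0.08, adjusted p = 0.0127, edgeR). The call was lost when WT3, KO1, KO2 or KO3 was left out (adjusted p = 0.0946, 0.0623, 0.0515 and 0.224 in edgeR) and with limma on log2(FPKM + 0.1), where the adjusted p was 0.117. Supt3, which overlaps Runx2 on the other strand, had a log2 fold change of -0.32 with an adjusted p of 0.150 (edgeR), and its genotypes did not overlap.

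Sp7, which acts after Runx2 in bone formation (chromosome 15 from 102265041 to 102275617, minus strand), was close to the floor of 3 counts. It had 5, 2 and 4 counts in WT and 5, 3 and 5 in KO. The genotypes overlapped, and the 95% interval of the log2 fold change ran from -1.89 to 1.84, so that a difference inside this range was not detectable.

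Of 20 other bone genes 18 had counts, 3 rose and 2 fell, with a median log2 fold change of 0.16. In place of 5 genes, 3 passed with any of the KO libraries left out, and 3 with DESeq2. Msx2, a homeobox factor of skull and limb bone, was a DEG with few counts in WT (2, 0 and 7, against 27, 31 and 24 in KO; log2 fold change 2.94, standard error 0.54, adjusted p = 2.67e-06, edgeR), and its log2 fold change ran from 2.41 without WT2 to 4.23 without WT3. Spp1, which encodes the bone matrix protein osteopontin, rose from 213 ± 22.0 to 340 ± 6.10 CPM (0.68), and Col1a1, the main collagen of bone and of fibroblasts, from 8634 ± 749 to 9940.0 ± 234 CPM (0.20), with adjusted p-values of 1.43e-20 and 0.00196 (edgeR). Ibsp, which encodes bone sialoprotein, and Dlx5 were at 0 in all libraries.

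None of the fat regulators passed the test, and Cebpa and Pparg had few counts. Cebpa (chromosome 7 from 34818718 to 34821353, plus strand) had 27, 28 and 43 counts in WT and 90, 53 and 50 in KO. This was 2.12, 2.0 and 2.31 CPM in WT and 4.25, 3.19 and 3.12 CPM in KO. The KO libraries lay above the WT libraries, and KO1 stood out as the highest. The log2 fold change was 0.72 (SE 0.26, adjusted p = 0.0603, edgeR), with a 95% interval, before adjustment, from 0.21 to 1.23. Without KO1 it was 0.55 (adjusted p = 0.420, edgeR).

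Pparg, the nuclear receptor that completes fat cell differentiation (chromosome 6 from 115337912 to 115467360, plus strand), had 19, 16 and 25 counts in WT and 46, 29 and 32 in KO. This was 1.49, 1.14 and 1.34 CPM in WT and 2.17, 1.74 and 2.0 CPM in KO, again without overlap. The log2 fold change was 0.58 (SE 0.34, adjusted p = 0.378, edgeR), and its 95% interval ran from -0.08 to 1.24, a range that holds both 0 and the value of Scx.

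Cebpb, which acts early in fat formation and in many stress and cytokine responses (chromosome 2 from 167530835 to 167532338, plus strand, 34.8 Mb from Mcm8), was the most abundant of the fat regulators. It had 527, 434 and 610 counts in WT and 758, 691 and 630 in KO, or 41.3, 30.9 and 32.7 CPM in WT and 35.8, 41.5 and 39.3 CPM in KO. The genotypes overlapped, with WT1 as high as the KO libraries. The log2 fold change was 0.15 (SE 0.09, adjusted p = 0.392, edgeR). Without WT1, the library that stood apart, it was 0.28 with an adjusted p of 0.0134 (edgeR), which would pass. Peds1, which overlaps Cebpb on the other strand, had a log2 fold change of 0.14 (adjusted p = 0.464, edgeR).

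Of 23 other fat genes 19 had counts, 5 rose and 1 fell, with a median log2 fold change of 0.39 over the 19 and 0.18 over the 10 with at least 1 CPM. The DEGs were Plin4, which coats lipid droplets (1.47 ± 0.826 CPM in WT, 3.47 ± 0.512 CPM in KO, log2 fold change 1.19), and Prdm16, a regulator of brown fat that is also active in other tissues (0.405 ± 0.340 and 1.77 ± 0.236 CPM, 2.03), with adjusted p-values of 6.41e-04 and 1.50e-04 (edgeR). Without WT1 Plin4 was at 0.84 and no longer a DEG, and Prdm16 ran from 1.57 without WT2 to 2.94 without WT3. Klf5, a zinc-finger factor of early fat formation and of epithelia, rose by 0.47 on the log2 scale and Cebpd by 0.39 (adjusted p = 1.46e-04 and 0.0352, edgeR). The call of Cebpd was lost without WT2, WT3 or any of the KO libraries, with an adjusted p of up to 0.284, and with DESeq2 and limma-voom (adjusted p = 0.139 and 0.117). Lpl, which encodes lipoprotein lipase, fell from 80.9 ± 3.88 to 57.6 ± 1.51 CPM (-0.49, adjusted p = 5.72e-08, edgeR). The fat cell hormone gene Adipoq, named after its values were seen, had 1 count in WT1 and 0 in the other libraries, and Lep, Cd36, Cidec and Pck1 were at 0 in all.

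Of the other relatives of the C/EBP proteins, Cebpe was at 0 and 4 had counts. Cebpd rose, as above, and Cebpg (-0.09), Cebpz (-0.15) and Ddit3 (-0.16) had adjusted p-values of 0.608, 0.273 and 0.375 (edgeR). The symbol Ddit3 is carried by 2 overlapping entries on chromosome 10, of which 1 had no count in any library, and the values are those of the other. The median log2 fold change of the 4 was -0.12.

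Myod1 (chromosome 7 from 46025898 to 46028523, plus strand) was not tested, as no library held a count. Of 25 other muscle genes 18 had counts, 2 rose and 1 fell, with a median log2 fold change of 0.10 over the 18 and of the other sign, -0.06, over the 7 with at least 1 CPM. Pax3, the paired-box factor of muscle and neural crest progenitors, was a DEG that fell, from 64, 81 and 101 counts in WT to 47, 26 and 27 in KO. Pax3 averaged 5.40 ± 0.379 CPM in WT and 1.82 ± 0.349 CPM in KO (log2 fold change -1.55, standard error 0.24, adjusted p = 5.91e-09, edgeR). Six4, a homeobox factor that acts in muscle progenitors and in other tissues, rose from 16.1 ± 1.34 to 22.0 ± 1.54 CPM (0.45, adjusted p = 0.00158, edgeR). The myogenic factors Myog and Myf5, named after their values were seen, each had 1 count in 1 KO library and 0 elsewhere, and Ckm, Pax7, Mymk, Mymx, Myh8, Myl1 and Tnnc2 were at 0.

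**Figure D3:**
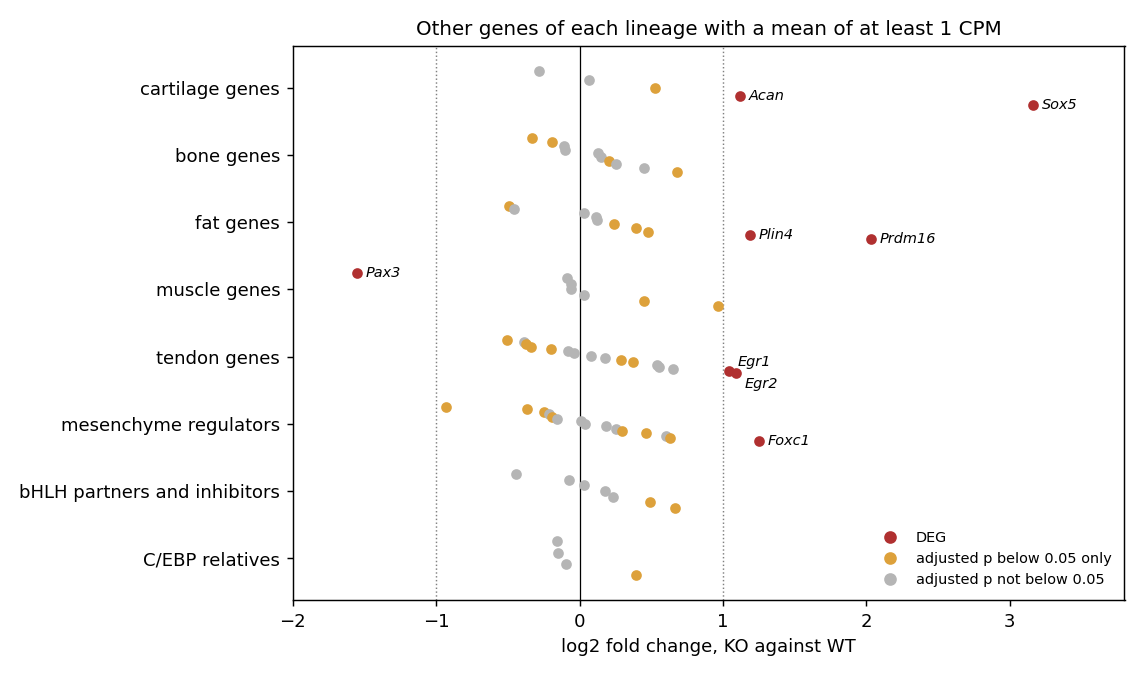
Log2 fold change (KO against WT) of the other genes of each lineage with a mean of at least 1 CPM, 1 point per gene, red for DEGs, yellow for an adjusted p below 0.05 only, grey otherwise. The cartilage, bHLH and C/EBP lists have called points on the higher side only, the other lists on both sides, from -1.55 (Pax3) to 3.16 (Sox5). Msx2 and Six2, also DEGs, lie under 1 CPM and are not drawn.

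Twist1 and Twist2, basic helix-loop-helix (bHLH) repressors of bone, fat and muscle fates, were among the regulators with most counts, and neither passed the test. Twist1 (chromosome 12 from 34007670 to 34009828, plus strand) had 754, 754 and 1119 counts in WT and 1350, 1048 and 1069 in KO. This was 59.1, 53.7 and 60.1 CPM in WT and 63.7, 63.0 and 66.8 CPM in KO. The KO libraries lay just above the WT libraries. The log2 fold change was 0.16 (SE 0.08, adjusted p = 0.279, edgeR).

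Twist2 (chromosome 1 from 91729183 to 91775750, plus strand) had 630, 566 and 737 counts in WT and 759, 670 and 566 in KO. This was 49.4, 40.3 and 39.6 CPM in WT and 35.8, 40.3 and 35.3 CPM in KO. WT1 was the highest, and the genotypes overlapped. The log2 fold change was -0.21 (SE 0.09, adjusted p = 0.152, edgeR), and -0.11 without WT1. The noncoding genes Gm29100 and Gm29101, which overlap Twist2, had log2 fold changes of -0.10 and 0.03 (adjusted p = 0.875 and 0.974, edgeR).

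As the paralogs share their DNA-binding fold, their ratio was taken within each library. The FPKM of Twist2 was 42.9%, 38.5% and 33.8% of that of Twist1 in WT, and 28.8%, 32.8% and 27.2% in KO. All KO values lay below all WT values, and the closest were WT3 and KO2. The log2 ratio was lower in KO by -0.37 (-1.39 ± 0.17 in WT, -1.76 ± 0.14 in KO; exact permutation test, two-sided, p = 0.1, the smallest that 3 against 3 libraries can give), and by -0.29 without WT1.

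**Figure D4:**
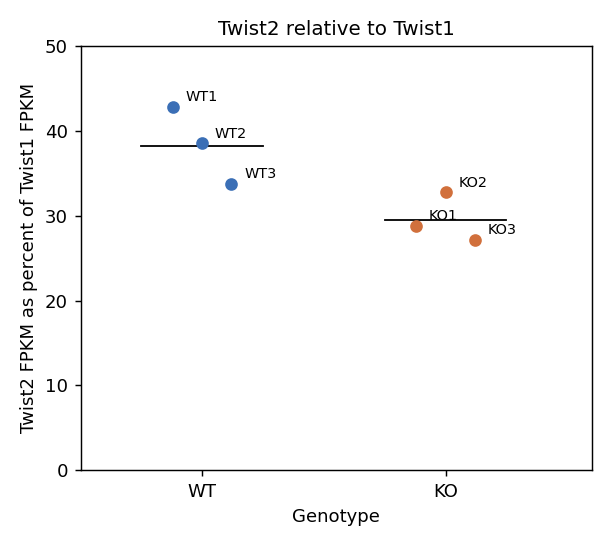
FPKM of Twist2 as a percentage of that of Twist1 in each library, with a line at the value of the mean log2 ratio (38.2% in WT, 29.5% in KO). The WT libraries lie from 33.8% to 42.9% and the KO libraries from 27.2% to 32.8%.

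The bHLH factors Twist1, Twist2, Scx and Myod1 bind DNA with E proteins such as Tcf3 and Tcf12, and are held back by Id proteins, which take up the partner without binding DNA. Of these 7 partner and inhibitor genes 2 rose, none fell, and the median log2 fold change was 0.18. Id2 rose from 11.2 ± 2.36 to 17.7 ± 0.901 CPM (0.66, standard error 0.13, adjusted p = 5.57e-06, edgeR) and Id1 from 9.45 ± 1.65 to 13.2 ± 1.64 CPM (0.49, 0.14, adjusted p = 0.00666, edgeR). The call of Id1 was lost without WT3 or KO3 (adjusted p of up to 0.179) and with DESeq2 and limma-voom (adjusted p = 0.0727 and 0.0555). Without WT1, 5 of the 7 genes passed, and 1 passed without WT3 or KO3 and with DESeq2 or limma-voom. The most abundant genes of the list did not pass: Tcf3 at 0.18, Id3 at 0.23 and Tcf12 at -0.07 had adjusted p-values of 0.0914, 0.0523 and 0.636 (edgeR).

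Among 20 other regulators and structural genes of mesenchyme 17 had counts, 4 rose and 4 fell, with a median log2 fold change of 0.04. The 8 calls became 11 without WT1 and 5 without KO2. The forkhead factor Foxc1, active in somites, skull and eye mesenchyme, was the only DEG of the list, at 17.2 ± 1.13 CPM in WT and 41.0 ± 1.19 CPM in KO (1.25, standard error 0.10, adjusted p = 2.28e-32, edgeR). Its relative Foxc2 rose from 7.23 ± 1.14 to 11.1 ± 1.28 CPM (0.63), and Zeb1, a repressor of epithelial genes, from 54.5 ± 6.90 to 75.4 ± 2.71 CPM (0.46), with adjusted p-values of 8.16e-04 and 5.06e-07 (edgeR). Osr2, a zinc-finger factor of joint and palate mesenchyme, fell from 3.27 ± 0.382 to 1.71 ± 0.153 CPM (-0.93, adjusted p = 0.0145, edgeR), a call lost without WT3, KO2 or KO3 (adjusted p of up to 0.0732) and with DESeq2 (adjusted p = 0.0569).

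Over all 8 lineage lists, counting each gene once, 117 genes had counts, 24 rose and 12 fell, which is 30.8% of them beside 9.00% of all genes tested, and 10 were DEGs, beside 2.42% of all genes tested. Of the 73 with at least 1 CPM, 34 (46.6%) passed, beside 17.0%. The lists were drawn up with results of these data known. In place of 36 genes, 43 passed without WT1, 37 without WT2, 34 without WT3, and 30, 29 and 28 without KO1, KO2 and KO3.

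Markers of some other cell types that an embryonic trunk could contribute moved with the genotype as well. Their part in the results above was not tested. The shares below stand beside 9.00% of all genes tested (4.97% higher and 4.03% lower in KO) and 17.0% of those with at least 1 CPM. Of 8 epithelial markers with counts 3 rose (37.5% passed), among them the simple keratins Krt8 and Krt18, and 6 of the 8 averaged under 1 CPM. The sum of the list was 3.99 to 5.41 CPM in WT against 12.9 to 13.6 CPM in KO, with Krt5 and Esrp1 at 0. Of 6 mesothelial markers 2 rose and 1 fell, and the sum was 11.8 to 15.1 CPM in WT against 53.3 to 60.8 CPM in KO. In KO this sum was mostly Msln (mesothelin, 2.88 ± 0.165 and 44.9 ± 3.0 CPM), while Lrrn4 and Muc16 were at 0. Of 6 neuron and Schwann markers Stmn2 and Tubb3 rose (33.3% passed). The sum was 34.6 to 39.2 CPM in WT against 111 to 115 CPM in KO. Sox10 and Foxd3, which define neural crest and Schwann cells, were at 0.

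Of the 11 fibroblast markers 3 rose and 4 fell (63.6% passed), beside 9.00% of all genes tested and 17.0% of those with at least 1 CPM. Among them Thy1 was a DEG, at 394 ± 9.30 CPM in WT and 194 ± 5.99 CPM in KO (log2 fold change -1.03), and Pdgfrb was at -0.74. Smooth muscle markers summed to between 1627 and 1804 CPM in WT and between 1247 and 1306 CPM in KO, of which Acta2 fell (-0.41, adjusted p = 7.62e-10, edgeR). Of these 6 markers only Acta2 passed (16.7%). Endothelial markers summed to between 50.005 and 52.2 CPM in WT and between 39.2 and 43.2 CPM in KO, where Flt1 fell and Tie1 and Emcn were at 0. Of the 6 endothelial markers with counts only Flt1 passed (16.7%). None of 4 macrophage and blood markers with counts passed, at sums of 2.12 to 2.74 CPM in WT against 2.34 to 3.68 CPM in KO, and Adgre1, Tyrobp, Hbb-bt and Hba-a1 were at 0.

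The profiles most like those of the called regulators were sought among 11761 protein-coding genes with at least 1 CPM, as the root mean square difference of log2(CPM + 0.5) over the 6 libraries after each gene was centred. Nearest to Sox9 were Ctsc (0.054), Itga3 (0.065) and Irx3 (0.075), and nearest to Scx were Gpc1 (0.090), Plxnb1 (0.097) and Sytl2 (0.097). These genes rose in KO by log2 fold changes from 0.90 to 1.42. Scx stood at place 50 in the list of Sox9, and Sox9 at place 68 in that of Scx, at a distance of 0.176. With 6 libraries in 2 genotypes such a likeness mostly reports the size of the difference between genotypes, and is given as a description.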

How the data were processed

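RNA-seq of 3 WT and 3 KO MEF libraries was examined. Per the study's methods the authors made libraries with the NEBNext Ultra kit, aligned read pairs with HISAT2 (2.0.5) and counted reads per gene with featureCounts (1.5.0-p3; versions from the submitters' processing notes). The authors deposited raw counts and, in a second table, FPKM values, which were proportional to count over gene length within each library. The submitters' notes name GRCm38, but the coordinates of the deposited tables, which are printed here, are those of Ensembl 106 (GRCm39). Transcript sequences came from GENCODE M21 by symbol, 10 of 10 matched, and the read strand used in counting is not given in the sources used here.

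The deposited counts were tested with edgeR 4.0.16 (R 4.3.3): TMM scaling, quasi-likelihood fit without covariates on the 26898 genes with FPKM above 0 in at least 1 library, and Benjamini-Hochberg adjustment over all of them. The prior degrees of freedom were infinite: the spread of each gene was set to the trend over genes of like abundance. This makes p-values too small for unusually variable genes. The adjusted p-values of Sox9 and Scx were also larger by orders of magnitude in some other fits, as given below. Standard errors belong to the log2 fold change, ± is the SD of 3 libraries, and counts of 3 were taken as the floor, for counting error only. For DEGs the study's thresholds were used, 1 on the absolute log2 fold change and 0.05 on the adjusted p. The script was tested on simulated data.

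Alternatives were DESeq2 1.42.0, limma-voom (limma 3.58.1), RLE scaling, filterByExpr, a block for the replicate number, omission of each library, and limma on log2(FPKM + 0.1) or log2(FPKM + 1). A filter on a count above 0 gave the same genes as the FPKM filter. The exact permutation test of the Twist ratio used SciPy 1.17.1. The 10 regulators and all gene lists were chosen with earlier results of these data known. By rule the text names the regulators, Mcm8, the DEGs of each list, the 3 largest changes among its other genes past the test with at least 1 CPM, its 3 most abundant genes where fewer than 3 passed, and the 3 nearest profiles. Genes named otherwise are marked as such, except list members at 0, overlapping genes and defining markers. Values of some single genes that enter the counts of the lists are not reported here.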

Additional observations from a re-analysis of the deposited data

How the results depend on the processing

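The alternatives were set with earlier results of these data known. Sox9 and Scx kept their rise past an adjusted p of 0.05 in every alternative run. Their adjusted p-values were 1.08e-06 and 4.77e-05 with filterByExpr, against 1.63e-26 and 4.43e-16 in the main fit (all edgeR). With limma-voom they were 3.71e-07 and 2.22e-05. With limma on log2(FPKM + 0.1) they were 0.00134 and 0.00696, and on log2(FPKM + 1) 0.00274 and 0.0106. As DEGs, between 1 and 2 regulators were called with each library left out in turn, 1 without WT2 (Scx at 0.99), and 1 with limma on log2(FPKM + 1) (Scx at 0.97), a scale that understates changes of low genes. From 2 to 4 regulators passed the adjusted p alone, 4 without WT1, where Cebpb joined. Sp7 changed sign to 0.023 with limma-voom, 0.0098 with the replicate block, 0.40 without WT1 and 0.14 without KO2, never past the test, and lay between -0.28 and 0.40 with each library omitted. Of 117 lineage genes tested, 36 passed in edgeR, 30 in DESeq2, 14 with limma on log2(FPKM + 0.1) and 17 on log2(FPKM + 1), and 10, 10, 4 and 1 were DEGs. The cause was not tested. The order of the 10 levels was the same in TPM, but 6 of 10 kept their place, over all libraries, with the length of 1 spliced transcript per gene, an alternative added after the data were seen. The Twist ratio difference lay between -0.46 and -0.29 when a library was omitted.

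The replicate numbers did not pair the libraries: deviations from the group means correlated at -0.012, -0.0086 and 0.044 between libraries of the same number. With the number as a block, 3 regulators passed, 2 as DEGs, Sox9 at 1.37 and Scx at 1.10, and 36 lineage genes and 17 in place of 16 marker genes passed. The 3 paired differences of the Twist ratio gave p = 0.25 (exact sign-flip test, two-sided). This is the smallest p that 3 pairs can give, so it cannot be set against the unpaired p. Sp7, with at most 5 counts per library, and Myod1, with none, lie at or near the limit of detection.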
